A study of Homo sapiens with 8 samples.

Results

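This report describes 10 genes for proteins of the lipid droplet, taken from the 19158 genes measured in each library. They are the CIDE family members CIDEB and CIDEC, the perilipins PLIN2, PLIN3, PLIN4 and PLIN5, the lipases PNPLA2 and LIPE, and the lipase inhibitors G0S2 and HILPDA. The genes were found by symbol, and the set was selected on the difference in FPKM between these same untreated and dexamethasone libraries in an earlier reading, so their values are given as a description. The cells were A549, an established epithelial line derived from a human lung adenocarcinoma, labelled wild type and grown in all wells in DMEM with Glutamax and 5% fetal bovine serum. In 4 wells they were left untreated, and in 4 wells they received 1 µM dexamethasone for 48 h, a synthetic agonist of the glucocorticoid receptor. Each well gave 1 library of ribosomal-RNA-depleted RNA, replicates were numbered 1, 3, 4 and 5 in each group, and 1 batch label covered all libraries.

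Lipid droplets store triglycerides and sterol esters in a core surrounded by a phospholipid monolayer. Perilipins coat that surface and govern access of lipases, and CIDE proteins gather where droplets touch and let lipid pass from a smaller droplet to a larger one. Adipose triglyceride lipase, encoded by PNPLA2, takes the first fatty acid off a triglyceride, hormone-sensitive lipase, encoded by LIPE, acts on the resulting diglyceride, and G0S2 and HILPDA bind and inhibit adipose triglyceride lipase.

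Promoter sequence is shown for the 4 genes whose FPKM (fragments per transcript length and library size) did not overlap between untreated and dexamethasone libraries, so that the start regions of CIDEC, PLIN2, G0S2 and LIPE can be read beside their values. RefSeq (GRCh38.p14) gave windows for 9 of the 10 genes, 12 windows in all, and the bases before the start are printed 5′ to 3′ in the direction of transcription. Capitals mark matches to the motifs searched on both strands. These were the half-site AGAACA of the glucocorticoid response element, the full element (AGAACA, any 3 bases, then TGTTCT), the PPAR direct repeat (AGGTCA, any 1 base, then AGGTCA), the hypoxia response element core ACGTG and the TATA box core TATAA. The half-site is contained in the full element.
CIDEC, minus strand, chr3:9880256-9880503: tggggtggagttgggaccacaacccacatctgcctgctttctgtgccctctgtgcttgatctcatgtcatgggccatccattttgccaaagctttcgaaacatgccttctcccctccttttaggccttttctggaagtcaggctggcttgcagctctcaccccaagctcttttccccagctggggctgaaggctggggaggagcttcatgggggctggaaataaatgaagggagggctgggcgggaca
PLIN2, minus strand, chr9:19127493-19127742: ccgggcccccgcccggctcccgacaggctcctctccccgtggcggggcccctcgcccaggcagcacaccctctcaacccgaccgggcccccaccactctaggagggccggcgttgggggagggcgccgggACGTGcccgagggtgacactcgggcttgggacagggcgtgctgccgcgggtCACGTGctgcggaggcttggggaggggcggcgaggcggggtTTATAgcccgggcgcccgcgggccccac
G0S2, plus strand, chr1:209675162-209675411: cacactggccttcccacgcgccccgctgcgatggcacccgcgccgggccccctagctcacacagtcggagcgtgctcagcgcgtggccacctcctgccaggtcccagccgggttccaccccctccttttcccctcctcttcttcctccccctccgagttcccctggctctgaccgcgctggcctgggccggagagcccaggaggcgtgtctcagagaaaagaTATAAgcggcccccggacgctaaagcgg
LIPE, minus strand, chr19:42427389-42427638: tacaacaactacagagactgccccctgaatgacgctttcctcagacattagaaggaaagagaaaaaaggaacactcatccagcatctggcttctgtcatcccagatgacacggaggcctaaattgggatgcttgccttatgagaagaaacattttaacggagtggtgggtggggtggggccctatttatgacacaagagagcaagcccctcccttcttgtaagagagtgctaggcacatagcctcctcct

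The CIDEC and LIPE windows printed held none of these letters. A second LIPE window, chr19:42423586-42423835, overlaps a LIPE exon, is not printed and held none of them either. Which start the cells used was not tested. The PLIN2 window held ACGTG on the plus strand of the transcript 120 and 68 bases before the start, and the second of these is a palindromic CACGTG. PLIN2 also had TTATA, the reverse strand of the TATA core, 28 bases before the start, and G0S2 had TATAA at the same distance. ACGTG was present in 18.5% and TATAA in 18.9% of all 35116 RefSeq windows of this length. A CIDEC window at a second start, inside a CIDEC exon, held the reverse of the glucocorticoid half-site 240 bases before that start, shown here with its neighbouring bases.
CIDEC second start, minus strand, chr3:9879033-9879062: catcacagaaTGTTCTtttggccactgtga
The half-site was present in 12.4% of all windows, the full glucocorticoid element in 0.00285% and the PPAR repeat in 0.0171%. A match is a description of letters and not of a bound site.

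Between 14798 and 15182 genes per library were above 0. The libraries numbered 5 stood apart in both groups: deviations of genes from their group mean followed GC content with a Spearman rho of 0.779 in untreated replicate 5 and 0.727 in dexamethasone replicate 5, across 12130 genes that are not independent replicates. In the other libraries it lay between -0.678 and -0.0364. All 6 epithelial markers were above 0 in every library, with a summed 3470 to 5092 FPKM in untreated and 4558 to 6920 in dexamethasone libraries, although EPCAM was at 0.765 FPKM or less. KRT7, KRT8 and KRT18 made up most of that sum, and its members did not move together. KRT19 fell from a mean of 155.8 to 54.7 FPKM, whereas CDH1 rose from 6.80 to 18.2. CIDEC and perilipins are best known from fat cells, so adipocyte markers were read as well. Of 5 adipocyte markers in the files, ADIPOQ, LEP, CIDEA and LPL were at 0 in all 8 libraries, and PLIN1, the adipocyte perilipin, reached 0.183 FPKM. Fibroblast markers summed to 1.89 to 2.43 FPKM in untreated and 0.638 to 0.826 in dexamethasone libraries, leukocyte markers to 5.78 to 7.52 and 3.07 to 3.76, and endothelial markers to at most 0.182 and 0.0972. The leukocyte markers PTPRC and CD3E were at 0 in all 8 libraries, so that sum held CD68 and CD14 alone. COL1A1 made up most of the untreated fibroblast sum and fell from a mean of 2.025 to 0.367 FPKM. DCN went the other way, from 0 untreated to 0.178 to 0.355 FPKM treated. The part of these markers, or of GC content, in the results below was not tested beyond the values given with and without the libraries numbered 5 and the GC trend.

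CIDEC changed from a trace transcript to the most abundant of the 10. Its FPKM in untreated replicates 1, 3, 4 and 5 was 0.939, 0.545, 0.724 and 0.631, and in dexamethasone replicates 1, 3, 4 and 5 it was 63.0, 64.5, 55.9 and 85.4. Every treated library lay far above every untreated one, and the highest treated value was in replicate 5. The means were 0.710 ± 0.170 FPKM untreated and 67.2 ± 12.7 FPKM treated (SD, n = 4 each), a ratio of 94.7. As a difference of log2(FPKM + 1), which understates the change of low genes, the log2 fold change was 5.30 (SE 0.173), and it was 6.37 with a pseudocount of 0.1. With a pseudocount of 1 this ranked 1 among the 12161 genes that passed a filter of 0.5 FPKM in at least 4 libraries. The rank depends on the scale: it was 8 with a pseudocount of 0.1, and 19 by the ratio of mean FPKM, leaving out 4 genes listed at 0 in every untreated library. CIDEC had ranked 11293 to 12028 among all genes in untreated libraries and ranked 644 to 975 in treated ones. In bulk RNA, a change in the number of cells that express a gene and a change in RNA per cell cannot be told apart, which holds for every value here. CIDEC (ENSG00000187288) lies at chromosome 3, 9866711 to 9880254, minus strand (GRCh38), and no other gene in GENCODE v44 overlaps it.

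CIDEB, the family member known for its part in very-low-density lipoprotein assembly in liver, stayed low. Its FPKM in untreated replicates 1, 3, 4 and 5 was 0.684, 0.368, 0.434 and 1.10, and in dexamethasone replicates it was 0.337, 0.526, 0.412 and 0.660. The groups overlapped, and replicate 5 was the highest of each. The log2 fold change was -0.15 (SE 0.170), and 0.01 once the trend on GC content was removed from each library. CIDEB (chromosome 14, 24305096 to 24311430) overlaps NOP9 and LTB4R2 on the opposite strand, and since the use of strand in counting is not stated, their reads cannot be told apart.

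**Figure D1:**
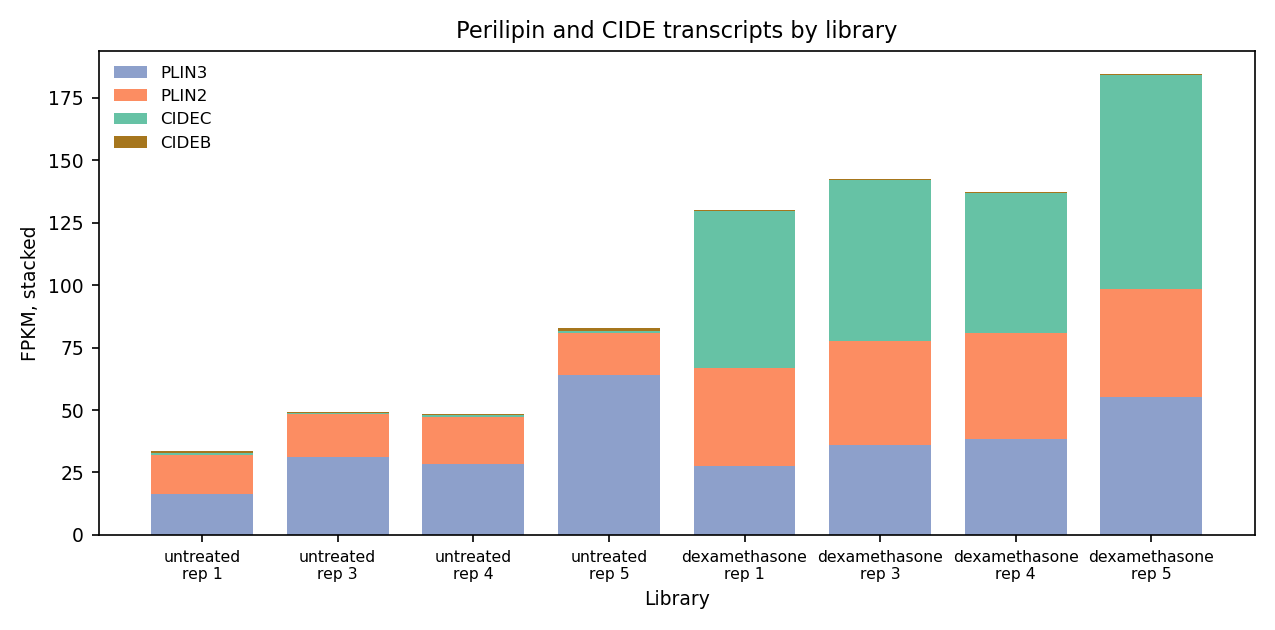
Stacked FPKM (y axis) of PLIN3, PLIN2, CIDEC and CIDEB in each of the 8 libraries (x axis, 1 bar per library); PLIN4 and PLIN5, at 0.0437 FPKM or less, are left out. CIDEC is barely visible in untreated bars and adds 55.9 to 85.4 FPKM to each dexamethasone bar.

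PLIN2, the perilipin found on droplets of most cell types and stabilised by lipid, rose with little spread. Its FPKM in untreated replicates 1, 3, 4 and 5 was 15.5, 16.9, 18.7 and 16.9, and in dexamethasone replicates it was 39.0, 41.5, 42.3 and 43.1. The groups were well separated and each was tight. The means were 17.0 ± 1.30 and 41.5 ± 1.80 FPKM (SD, n = 4 each), a ratio of 2.44 and a log2 fold change of 1.23 (SE 0.132). PLIN2 lies at chromosome 9, 19108375 to 19149290, minus strand, with no overlapping gene.

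PLIN3, which moves between cytosol and newly forming droplets, varied more between libraries than between groups. Its FPKM was 16.5, 31.4, 28.4 and 64.0 in untreated replicates 1, 3, 4 and 5, and 27.7, 35.9, 38.5 and 55.4 in dexamethasone replicates. The groups overlapped, with replicate 1 lowest and replicate 5 highest in both. The log2 fold change was 0.27 (SE 0.423), 0.71 without untreated replicate 5, 0.06 without dexamethasone replicate 5 and -0.04 without untreated replicate 1. It was 0.50 (SE 0.328) with the GC trend removed. With replicate number added to the fit as a block it was 0.27 (SE 0.166), not past the threshold. Between same-numbered libraries, PLIN3 was higher with dexamethasone in replicates 1, 3 and 4 and lower in replicate 5.

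PLIN4 and PLIN5, perilipins of adipose tissue and of oxidative tissue, were near 0. PLIN4 had FPKM of 0.0118, 0.0274, 0.0437 and 0.0375 untreated and of 0.0153, 0.00766, 0 and 0.0284 with dexamethasone, in the order of replicates 1, 3, 4 and 5. PLIN5 was listed at 0 in untreated replicates 1 and 4 and in dexamethasone replicate 1, and reached 0.0322 FPKM at most in the others. These 2 genes did not pass the filter and were not tested. PLIN4 (4502180 to 4518465), PLIN5 (4522531 to 4535224) and PLIN3 (4838341 to 4867768) all lie on the minus strand of chromosome 19. PLIN5 overlaps another protein-coding gene on the same strand over 6798 bases, where strand would not separate reads. PLIN4 overlaps HDGFL2 and PLIN3 a long non-coding RNA, each on the opposite strand. The 4 perilipins together came to 32.0 to 81.0 FPKM in untreated and 66.7 to 98.6 in treated libraries, which overlap. PLIN2 was 20.9% to 48.4% of that sum in untreated and 43.8% to 58.4% in treated libraries. CIDEC per PLIN2, as a ratio of FPKM, was 0.0321 to 0.0606 untreated and 1.321 to 1.98 treated, so CIDEC went from a small fraction of PLIN2 to above it in all 4 treated libraries.

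**Figure D2:**
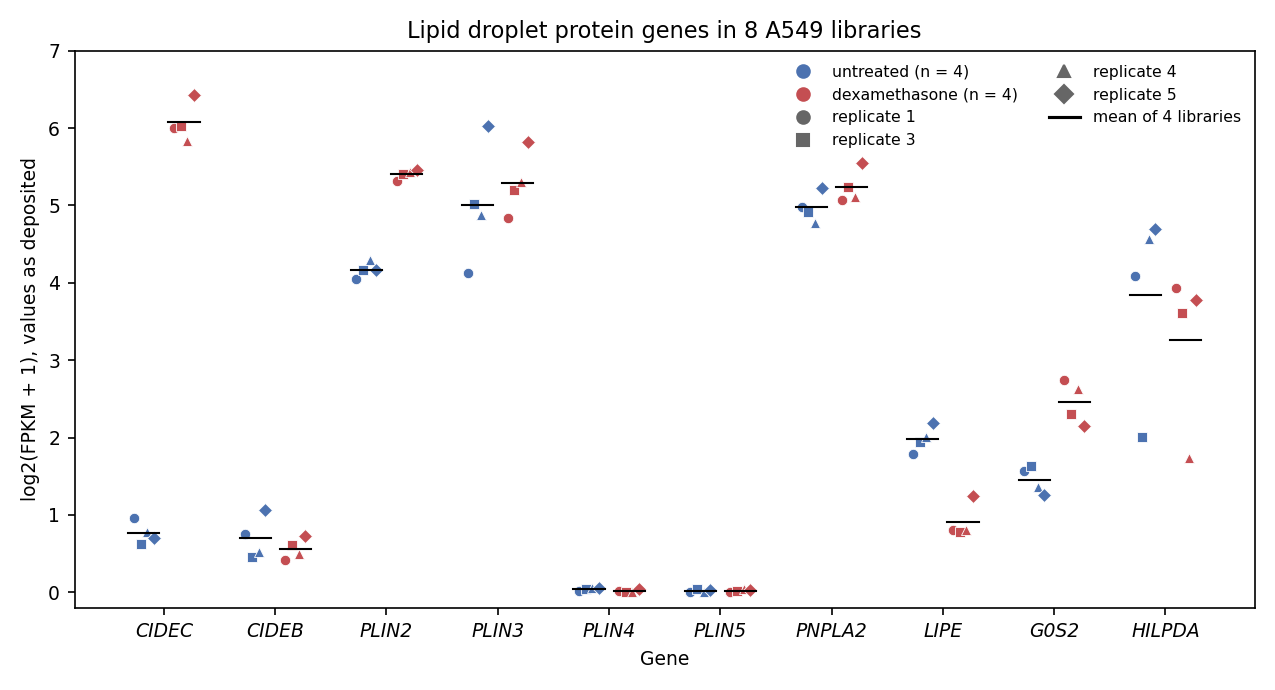
Values as log2(FPKM + 1) (y axis) of each of the 10 genes (x axis), 1 point per library with its shape giving the replicate, untreated left and dexamethasone right; lines are means of 4 libraries. CIDEC, PLIN2, G0S2 and LIPE separate by group, whereas HILPDA and PLIN3 spread widely within both.

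PNPLA2 was among the more abundant of the 10 transcripts in both groups. Its FPKM was 30.6, 29.3, 26.3 and 36.6 in untreated replicates 1, 3, 4 and 5, and 32.6, 36.8, 33.6 and 45.8 in dexamethasone replicates. The groups overlapped, with replicate 5 highest in each. The means were 30.7 ± 4.31 and 37.2 ± 5.98 FPKM (SD, n = 4 each), and the log2 fold change was 0.25 (SE 0.207). It was 0.30 (SE 0.098) without both libraries numbered 5 and 0.54 (SE 0.087) with the GC trend removed. With replicate number added to the fit as a block it was 0.25 (SE 0.096), not past the threshold. Between same-numbered libraries, PNPLA2 was higher with dexamethasone in every replicate. PNPLA2 (chromosome 11, 818902 to 825573, plus strand) has the highest transcript GC content of the 10, 64.8%, and overlaps a long non-coding RNA on the opposite strand.

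LIPE fell. Its FPKM was 2.47, 2.83, 3.01 and 3.54 in untreated replicates 1, 3, 4 and 5, and 0.753, 0.724, 0.748 and 1.37 in dexamethasone replicates. The groups did not overlap, although treated replicate 5 stood above the other treated libraries. The means were 2.96 ± 0.448 and 0.898 ± 0.312 FPKM (SD, n = 4 each), 3.30 times higher untreated, with a log2 fold change of -1.08 (SE 0.175). It was -0.82 with the GC trend removed. LIPE (chromosome 19, 42401507 to 42427426, minus strand) overlaps LIPE-AS1 on the opposite strand, whose reads cannot be told apart without strand. Another long non-coding RNA overlaps LIPE on the same strand over 688 bases, where strand would not separate reads. LIPE per PNPLA2 was 0.0806 to 0.114 in untreated and 0.0197 to 0.0298 in treated libraries.

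G0S2, first described as a G0/G1 switch gene and an inhibitor of adipose triglyceride lipase, rose. Its FPKM was 1.96, 2.09, 1.57 and 1.39 in untreated replicates 1, 3, 4 and 5, and 5.71, 3.96, 5.17 and 3.43 in dexamethasone replicates. The groups did not overlap, and replicate 5 was the lowest of each. The means were 1.75 ± 0.328 and 4.57 ± 1.06 FPKM (SD, n = 4 each), a ratio of 2.61 and a log2 fold change of 1.00 (SE 0.141). G0S2 per PNPLA2 was 0.0380 to 0.0713 in untreated and 0.0750 to 0.175 in treated libraries. G0S2 (chromosome 1, 209675420 to 209676388, plus strand) overlaps HSD11B1-AS1 on the opposite strand.

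HILPDA, the hypoxia-induced inhibitor of adipose triglyceride lipase, had the largest SE of the 8 tested genes on the log2 scale, although PLIN3 had the larger SD in FPKM in both groups. Its FPKM was 16.0, 3.03, 22.7 and 24.9 in untreated replicates 1, 3, 4 and 5, and 14.2, 11.2, 2.34 and 12.8 in dexamethasone replicates. Untreated replicate 3 and dexamethasone replicate 4 were low, and the groups overlapped. The log2 fold change was -0.59 (SE 0.682), and it ran from -1.22 without untreated replicate 3 to -0.06 without dexamethasone replicate 4. A list of 10 hypoxia-inducible factor targets, chosen after these values were seen, was read in the same libraries. Of these, 0 of 10 were lowest in untreated replicate 3 and only NDRG1 was lowest in dexamethasone replicate 4. NDRG1 was at 91.6 FPKM there, against 92.2 to 118.9 in the other treated libraries. Any part of hypoxia-inducible factor in the HILPDA values was not tested. VEGFA, a standard target of that factor, was at 5.73 FPKM in untreated replicate 3 and at 5.16 to 6.22 in the other untreated libraries. The genes whose deviations within groups were most like those of HILPDA, by root-mean-square difference over the 8 libraries, were LRRC20 (0.363), MXRA7 (0.548) and IER3 (0.566), also picked after seeing values. LRRC20 was at 4.51 FPKM in untreated replicate 3 and 5.30 in dexamethasone replicate 4, against 13.1 to 24.2 in the other libraries. HILPDA (chromosome 7, 128455849 to 128458418) overlaps HILPDA-AS1 on the same strand in GENCODE v44, and another long non-coding RNA on that strand over 2570 bases.

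Of the 10 genes, 8 were tested and 4 passed a limma Benjamini-Hochberg adjusted p under 0.05, namely CIDEC, PLIN2 and G0S2 higher and LIPE lower, where 27.0% of all tested genes passed, 12.1% higher and 14.8% lower. The 2 groups did not overlap in 4 of the 8 tested genes, against 31.5% of all tested genes. They overlapped in PLIN4 and PLIN5, which were not tested. Since the set was proposed from this contrast, nothing is read from these counts. The median log2 fold change of the 8 was 0.26, against 0.003 for all tested genes. In untreated cells PLIN3 and PNPLA2 had the highest means, and their ranges overlapped. PLIN2 and HILPDA followed, overlapping each other and PLIN3, then LIPE, which reached into the range of HILPDA, then G0S2 below LIPE without overlap, then CIDEC and CIDEB, which overlapped. In treated cells CIDEC came first in all 4 libraries, although its lowest value, 55.9 FPKM, was just above the highest of PLIN3.

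**Figure D3:**
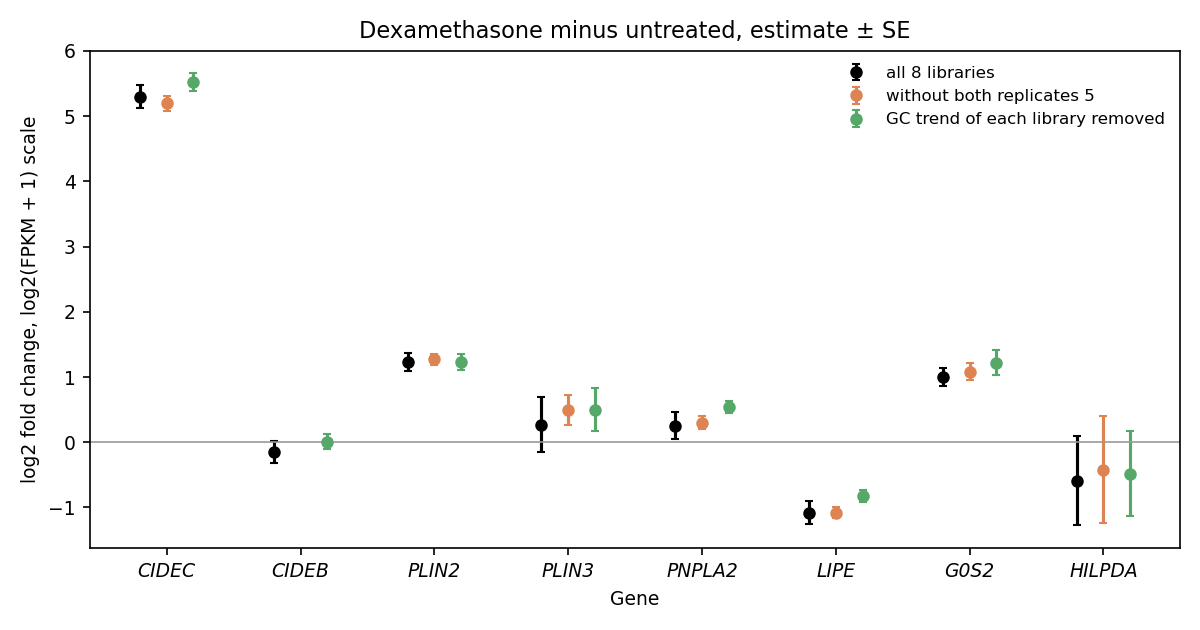
Log2 fold change (y axis, dexamethasone minus untreated, bars are SE) of the 8 tested genes (x axis) with all 8 libraries, with the GC trend removed and without both libraries numbered 5; CIDEB has no value in the last, where it did not pass the filter. CIDEC lies between 5.20 and 5.52 and LIPE between -1.08 and -0.82.

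Other genes of droplet metabolism were read from 6 lists written by function, beside the 27.0% of all tested genes that passed and their median log2 fold change of 0.003. In triglyceride and sterol ester synthesis, 7 of 14 tested genes passed, 4 higher and 3 lower, with a median of 0.149. Without scaling between libraries 4 passed, 1 of them higher. DGAT2, which makes triglyceride at droplets, fell from 3.21 ± 0.315 to 0.990 ± 0.192 FPKM (limma adjusted p = 0.000385), and GPAT3, an acyltransferase of the first step, fell from 11.97 ± 3.16 to 7.03 ± 0.546 (limma adjusted p = 0.00596). LPIN3, a phosphatidate phosphatase, rose from 3.63 ± 0.0602 to 7.07 ± 0.350 FPKM (limma adjusted p = 0.00139). Among droplet assembly and other droplet proteins 4 of 12 passed, all 4 higher (median 0.326). METTL7A was at 0 to 0.0931 FPKM untreated and 5.29 ± 0.355 treated (limma adjusted p = 7.63e-08), and ACSL3, a droplet-seeding acyl-CoA synthetase, rose from 22.0 ± 6.58 to 39.2 ± 4.62 (limma adjusted p = 0.00416). METTL7A passed the filter of 0.5 FPKM through the treated libraries alone.

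Among cofactors of lipolysis and other lipases 5 of 10 passed, 4 higher and 1 lower (median 0.367). With the GC trend removed, 2 of the 10 passed, both higher, where 37.2% of all tested genes passed. CES1, a carboxylesterase, rose from 12.7 ± 3.39 to 28.5 ± 3.93 FPKM (limma adjusted p = 0.00084), and MGLL, the monoglyceride lipase, from 30.8 ± 2.22 to 48.7 ± 4.69 (limma adjusted p = 0.00778). ABHD5, the coactivator of adipose triglyceride lipase, rose from 2.94 ± 0.562 to 4.84 ± 0.954 FPKM (limma adjusted p = 0.0137), a call lost with the GC trend removed (limma adjusted p = 0.37). ABHD5 per PNPLA2 overlapped between groups, at 0.0604 to 0.132 and 0.0954 to 0.185. In fatty acid uptake and activation 4 of 10 passed, all 4 higher (median 0.275). ACSL5, among these 4, was at 0.0117 to 0.0451 FPKM untreated and 1.04 to 1.51 treated. It passed the filter of 0.5 FPKM through the treated libraries alone, so it could hardly be called lower. With the GC trend removed 7 of 10 passed, 6 higher and 1 lower, again beside 37.2% of all tested genes. ACSL1, which activates long-chain fatty acids, rose from 5.88 ± 1.15 to 55.9 ± 5.80 FPKM, with no overlap between groups (limma adjusted p = 5.91e-07).

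Of the transcription factors known to act on droplet genes 6 of 13 passed, 4 higher and 2 lower (median -0.03). Without dexamethasone replicate 1, 3 or 4, the count was 4 higher and 0 lower. CEBPB rose from 51.4 ± 3.86 to 154.5 ± 15.7 FPKM (limma adjusted p = 0.000172) and FOXO1 from 1.51 ± 0.410 to 7.81 ± 1.60 (limma adjusted p = 2.08e-05). HIF1A rose from 42.9 ± 19.6 to 93.4 ± 14.0 FPKM (limma adjusted p = 0.0102). The 2 lower were CEBPA, from 6.67 ± 0.889 to 3.54 ± 0.717 FPKM (limma adjusted p = 0.0159), and SREBF1. SREBF1 fell from 63.6 ± 5.24 to 43.2 ± 1.93 FPKM (limma adjusted p = 0.0245). PPARG, the regulator of CIDEC and PLIN2 in fat cells, was at 16.1 ± 1.49 FPKM untreated and 15.6 ± 1.23 treated, with no call (limma adjusted p = 0.766). Of PPAR targets outside the droplet 5 of 11 passed, 4 higher and 1 lower (median 0.125). ANGPTL4, an inhibitor of lipoprotein lipase, rose from 4.67 ± 0.737 to 64.7 ± 10.2 FPKM (limma adjusted p = 8.43e-07), and PDK4, a kinase that restrains pyruvate oxidation, from 4.49 ± 1.999 to 34.6 ± 9.66 (limma adjusted p = 9.37e-05). All these values are SD with n = 4 per group, and since wells are the replicates, p-values measure only the spread between wells. DGAT2, METTL7A, ACSL1 and FOXO1 overlap another annotated gene on the same strand, so their reads could be shared. On the opposite strand DGAT2, LPIN3, ACSL3, MGLL, ABHD5, ACSL1, FOXO1, CEBPB and PDK4 overlap one, so reads could be shared there too. HIF1A, CEBPA, SREBF1 and PPARG were not checked for such overlaps.

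**Figure D4:**
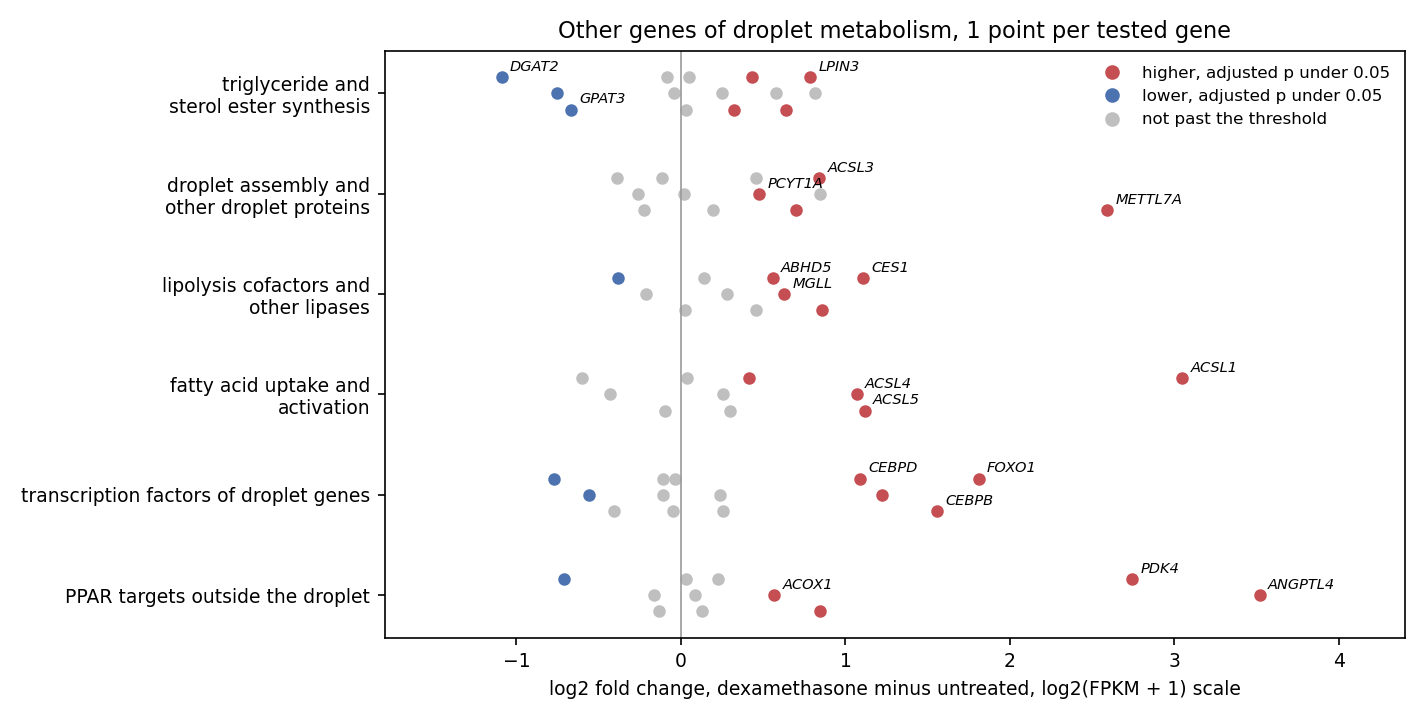
Log2 fold change (x axis, dexamethasone minus untreated, log2(FPKM + 1) scale) of every tested gene of 6 lists (y axis), 1 point per gene, coloured by limma call at an adjusted p of 0.05. ANGPTL4, ACSL1, PDK4 and METTL7A lie furthest right, between 2.59 and 3.52.

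The genes whose pattern over the 8 libraries was most like that of CIDEC were SCNN1B, CDH16, MAOA, SAA1 and BEST2. Their root-mean-square difference from CIDEC in centred log2(FPKM + 1) was 0.269, 0.281, 0.382, 0.424 and 0.546. SCNN1B, a subunit of the epithelial sodium channel, went from 0.101 to 0.316 FPKM untreated to 27.6 to 36.3 treated. CDH16, a cadherin of epithelia, went from 0.293 to 0.539 FPKM untreated to 36.1 to 45.9 treated. Since the genes were picked for their likeness to CIDEC, being low untreated and high treated follows from the choice. SCNN1B, SAA1 and BEST2 were below 0.5 FPKM in every untreated library and passed the filter through treated libraries alone. SAA1 can share reads with its near-identical copy SAA2, so its value is uncertain.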

How the data were processed

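RNA from 8 wells of A549 cells was sequenced, and the authors deposited 1 value per gene and library. Per the submitters' processing notes the tools were FastQC 0.11.9, cutadapt 3.4, STAR 2.7.9a, featureCounts (Subread 2.0.3) and DESeq2 1.32.0, with GRCh38. The annotation release and use of strand are not given in the sources used here. The deposited values are described as counts but are not whole, and they were read as FPKM, a unit inferred from the values. Steps between low values matched either 24800000 to 28700000 or 49400000 to 57300000 fragments per library. At these depths 40.6% to 49.0% of the steps lay within 0.1 of a whole number, where chance gives 20% at a depth fixed beforehand. The depths were instead picked by a search for the largest share, so 20% is too low a reference here. Depth is not settled and no count test was run.

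Scaling between libraries used trimmed means of M values (0.3 of M and 0.05 of A). The two-sided test was limma 3.58.1 on log2(FPKM + 1), run in R 4.3.3 with lmFit and eBayes (trend, robust) and the group as sole term. Genes had to reach 0.5 FPKM in 4 libraries, and p-values were Benjamini-Hochberg adjusted over 12161 genes. Leave-out fits asked for 3 libraries. Printed FPKM are unscaled. GC content came from GENCODE v44 for 99.5% of genes. The fit was tested on simulated data. Named genes were the 10 genes of the set, the 3 smallest p per list (some are not printed), and the 5 genes most like CIDEC. NDRG1, VEGFA, LRRC20, MXRA7, IER3, PPARG, CEBPA, SREBF1 and HIF1A were added after their values were seen. The set and all lists were chosen with earlier results of these data known. Alternatives were the pseudocount, filter, scaling, GC trend, replicate block and leaving out libraries.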

Additional observations from a re-analysis of the deposited data

Results flagged for a closer look

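In 66 groups of 4 FPKM values examined for the genes named, 3 held a value far from the others by Dixon's test. Chance gives about 1 in 20, or 3.3 of the 66, so the number found is no more than chance gives. LIPE in dexamethasone replicate 5 was at 1.37 FPKM, against 0.724 to 0.753 in the other treated libraries. SCNN1B in untreated replicate 1 was at 0.316 FPKM, against 0.101 to 0.122. SAA1 in untreated replicate 1 was at 0.193 FPKM, against 0 to 0.0294.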

How the results depend on the processing

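Of 525 values of 31 named genes under 17 alternatives, 515 kept their direction and side of the threshold, and 27 genes did so in every alternative. CIDEB turned to 0.01 with the GC trend removed, with or without the replicate block, and to 0.02 without untreated replicate 5. PLIN3 turned to -0.04 without untreated replicate 1. With 1 library left out at a time, CIDEB ran from -0.25 to 0.02 and PLIN3 from -0.04 to 0.71. PNPLA2 passed the threshold without both libraries numbered 5, with the GC trend removed, and with the block and GC trend together, and PLIN3 with the block and GC trend together. The genes of the set that passed numbered 4 in every alternative but 3: 5 with the GC trend removed, 6 with the block added to it, and 5 of 7 tested without both libraries numbered 5. The share of all tested genes that passed rose in the same alternatives, from 27.0% (3280 genes) to 37.2% (4527), 43.7% and 45.1% (5513, with 3241 of the 3280 among them), and the number was 2285 to 3836 when 1 library was left out. Synthesis genes that passed fell to 4 without scaling and ran from 4 (without untreated replicate 1, dexamethasone replicate 3 or dexamethasone replicate 4) to 7 with 1 library left out. Lipolysis genes fell to 2 with the GC trend removed, with or without the block, and ran from 3 (without untreated replicate 3, untreated replicate 4 or dexamethasone replicate 4) to 6. Uptake genes rose to 7 with the GC trend removed. Transcription factors that passed ran from 4 (without dexamethasone replicate 1, 3 or 4) to 6, and PPAR targets fell to 3 without a filter and ran from 3 (without dexamethasone replicate 1, 3 or 4) to 5. ABHD5 no longer passed once the GC trend was removed, with or without the block. The cause was not tested. Depth is unsettled, which limits the lowest genes, PLIN4 and PLIN5.

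Replicate numbers are shared by the groups, but the labels do not say that they pair wells, and the main fit left them out. Deviations of same-numbered libraries correlated by 0.291, 0.0659, 0.314 and 0.713 for replicates 1, 3, 4 and 5, all positive. For other pairs the range was -0.571 to 0.432. An effect shared by same-numbered libraries was not tested beyond the fits with the block, and the main fit leaves any such effect in its SE. Of 8 libraries, 5 correlated best with their own number. With the replicate block 5769 genes passed, 3279 of the 3280 among them, and with the GC trend removed as well 5319. Uptake genes that passed rose to 8 with the block, alone or with the GC trend removed.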
